A study of Canis lupus familiaris with 2 samples.

Results

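Abundance was described for 5 genes of cytokine signalling and the NF-kB response in a dog lymphoma cell line selected for doxorubicin resistance: the chemokine CCL5, the receptor subunits IL2RA and IL10RA, the NF-kB inhibitor NFKBIA and the transcription factor STAT4. They were found by symbol and are 5 of 1729 rows in the comparison of CLBL-1 8.0 with CLBL-1. CLBL-1 8.0 is the resistant line, maintained with 8 µM doxorubicin hydrochloride, and CLBL-1 is the parental diffuse large B-cell lymphoma line, labelled as lymph node in origin and as having no chemoresistance. Both lines were cultured in RPMI medium with 10% fetal bovine serum and penicillin and streptomycin, and poly-A RNA was sequenced. The labels do not say whether CLBL-1 8.0 is 1 clone, whether the dishes used for RNA were pooled or whether the drug was present at extraction. Each line is 1 sample, so no difference below has a replicate check or a test. The 5 genes were chosen by these same CLBL-1 8.0 and CLBL-1 values, so their differences are a description.

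CCL5 is a chemokine that draws T cells, monocytes and other leukocytes. IL2RA, also called CD25, is the subunit that gives the interleukin-2 receptor its high affinity, and IL10RA is the ligand-binding subunit of the interleukin-10 receptor. Both receptors signal through JAK kinases to STAT transcription factors. NF-kB is a family of transcription factors that many receptors activate in B cells, and NFKBIA encodes IkB-alpha, which holds NF-kB dimers in the cytoplasm and is itself an NF-kB target gene. In human and mouse cells CCL5 and IL2RA are NF-kB targets too, and STAT4 carries the interleukin-12 signal in T and NK cells.

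CCL5 was at 43.1 in CLBL-1 8.0 against 5.71 in CLBL-1, a 7.54-fold difference. IL10RA was at 19.6 in CLBL-1 8.0 against 2.76 in CLBL-1, which is 7.10-fold. These were the largest relative differences of the 4 genes that were higher in the resistant line. IL2RA was at 81.8 in CLBL-1 8.0 against 25.03 in CLBL-1, a 3.27-fold difference. NFKBIA was at 26.3 in CLBL-1 8.0 against 10.3 in CLBL-1, a 2.55-fold difference. STAT4 went the other way, at 0.523 in CLBL-1 8.0 against 6.31 in CLBL-1, which is 12.1-fold lower in the resistant line. All values are abundances whose unit, FPKM or TPM, is not stated, and the depth of the libraries is unknown, so levels of different genes are not ranked against each other here. In RNA from a whole culture, fewer cells that express a gene and less of its RNA per cell cannot be told apart.

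**Figure D1:**
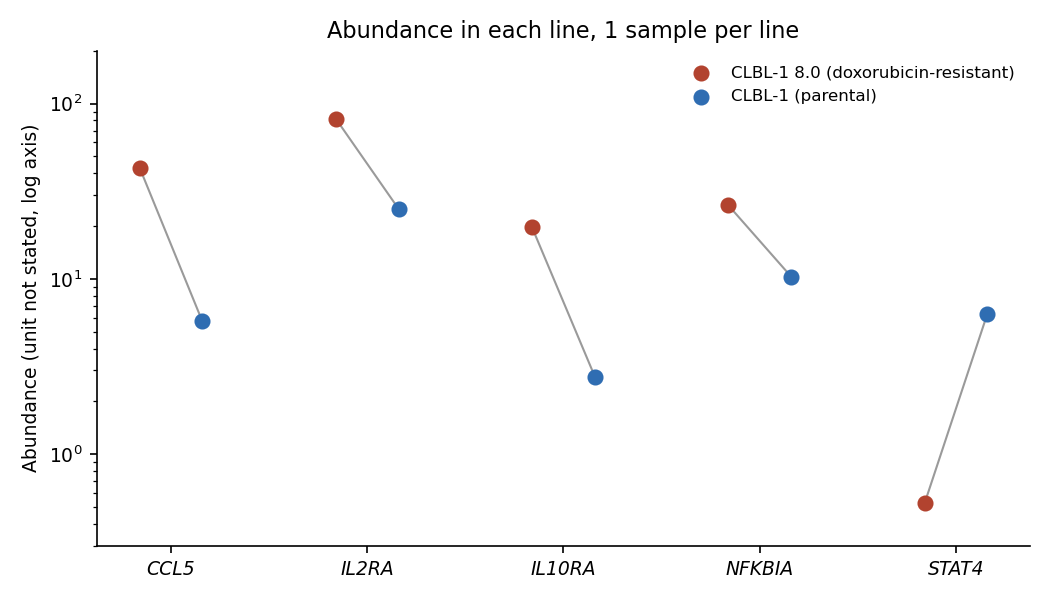
Abundance of the 5 genes (log axis, unit not stated) in CLBL-1 8.0 (red, left) and CLBL-1 (blue, right), with 1 sample per line and a grey line joining the values of a gene. CCL5, IL2RA, IL10RA and NFKBIA lie higher in CLBL-1 8.0, and STAT4 lies lower, at 0.523 against 6.31.

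So 4 of the 5 genes were higher in the resistant line, where 65.2% of all rows were higher and 34.8% lower as deposited. The same 4 were at least 2-fold higher on the log2(value + 1) scale, which 24.1% of all rows were, and STAT4 was at least 2-fold lower, as were 14.4%. Nothing is read from these counts, since the genes were chosen for this contrast. The parental values were also multiplied by 1.25, which equalises the upper quartiles of the table's rows above 0 in both lines. Then 12.5% of all rows were at least 2-fold higher, among them CCL5, IL10RA and IL2RA. NFKBIA then had a log2 difference of 0.98 and was no longer among them. Over all rows at least 2-fold apart, 62.6% were higher in the resistant line, and 28.8% after this scaling. The table holds no row less than 1.59-fold apart, so this shift carries many lower rows past 2-fold, 533 against 249 before. These shares therefore depend on the selection of rows.

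On the scale of log2((CLBL-1 8.0 + 1)/(CLBL-1 + 1)), used for every log2 difference below unless stated, the differences were 2.72 for CCL5 and 2.45 for IL10RA. Adding 1 shrinks the difference of low values. The difference was 1.67 for IL2RA and 1.27 for NFKBIA, against a median of 0.88 over the 1127 higher rows. Among those rows CCL5 had rank 31, IL10RA rank 41, IL2RA rank 104 and NFKBIA rank 221. STAT4, at -2.26, had rank 44 of the 602 lower rows, whose median was -0.92. The size of the STAT4 difference rests on a value below 1 in CLBL-1 8.0: it was -3.59 as deposited, with no pseudocount, and -1.03 with a pseudocount of 5. Only 22 rows had a smaller value than STAT4 in the resistant line. Its larger value of 6.31 also lay near the lower edge of the table, where 157 rows had a smaller one and the smallest was 5.01.

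**Figure D2:**
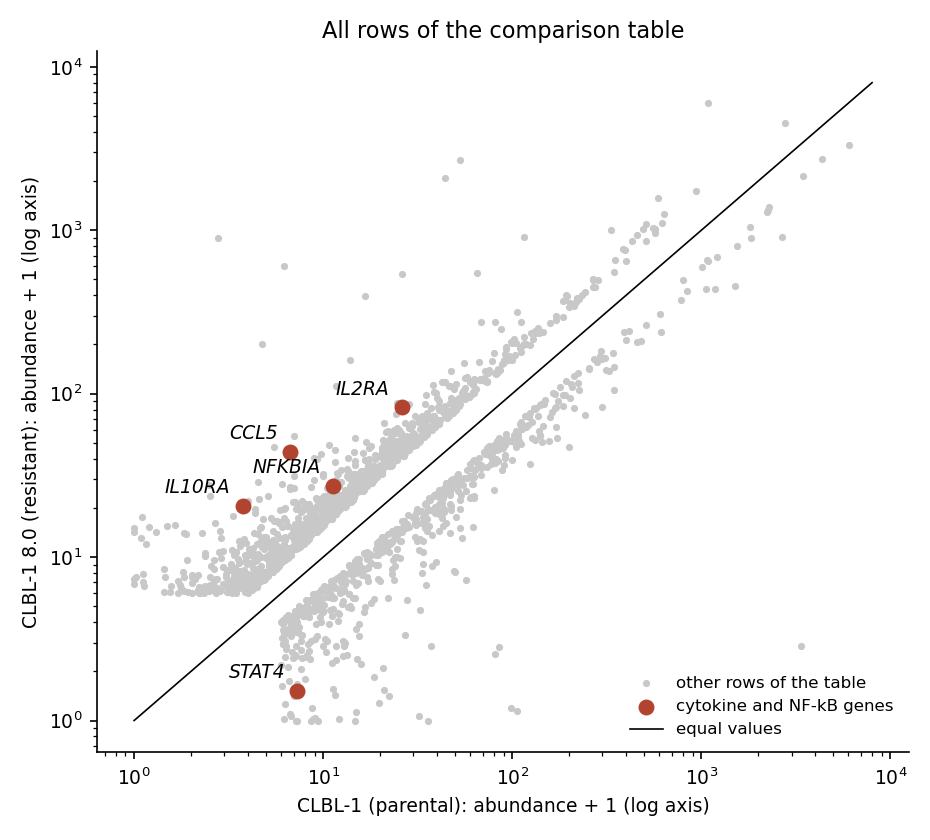
Abundance + 1 in CLBL-1 8.0 (vertical, log axis) against CLBL-1 (horizontal, log axis) for all 1729 rows (grey), with the 5 genes in red and a line of equal values. The empty band along the line reflects the selection of rows, whose smallest fold is 1.59, and STAT4 lies below the line, near the bottom.

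The table is the authors' selection of rows, and a gene that has no row was not analysed here. In every row the higher of the 2 values was at least 5.01, and the 1720 rows above 0 in both lines differed at least 1.59-fold. Of 16 B cell markers 1 had a row, the tetraspanin CD37, at 26.6 in CLBL-1 8.0 against 50.4 in CLBL-1, so the B cell label could not be checked against its defining markers. Because IL2RA, CCL5, IL10RA and STAT4 are also genes of T and NK cells, markers of those cells were read beside them. Of 32 T and NK cell markers 6 had a row, 3 higher and 3 lower in CLBL-1 8.0, against 65.2% higher of all rows. Their summed abundance was 104 in CLBL-1 8.0 and 88.1 in CLBL-1. That sum is mostly GZMA, at 47.1 in CLBL-1 8.0 against 23.5 in CLBL-1, and EOMES, at 27.7 against 47.3, and single markers lay far apart. TRAT1 was at 20.6 in CLBL-1 8.0 against 2.72 in CLBL-1 and ICOS at 7.67 against 2.28, whereas PRF1 was at 1.07 against 6.67 and THEMIS at 0.0989 against 5.69. The markers' median log2 difference of 0.11 was the midpoint of 0.97 for GZMA and -0.75 for EOMES. It lay in the gap that the selection of rows leaves around 0. The median became -0.20 with upper-quartile scaling. It was -0.62 after centring, that is, after subtracting the median over all rows, 0.73, and 0.97 over the markers with a mean of at least 10. Of 18 myeloid markers FCER1G had a row, at 14.0 in CLBL-1 8.0 against 7.74 in CLBL-1, and of 17 stromal, endothelial and epithelial markers EPCAM had one, at 2.07 against 5.26. CD3D, CD3E, CD4 and CD8A, which define T cells, had no row. The part of such cells in the 5 differences was not tested.

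Of 53 chemokines and chemokine receptors on a fixed list, 2 had a row, and they went in opposite directions. CCL5 (gene ID 403522, chromosome 9, 37817409 to 37823852, plus strand, CanFam3.1 per the submitters' processing notes) was the higher one. CXCL10, a chemokine induced by interferons that attracts T cells, was at 7.80 in CLBL-1 8.0 against 36.8 in CLBL-1, with a log2 difference of -2.10, and it lies on chromosome 32, where 6 of 31 rows were higher. A further row, LOC490356, is described in the table as cytokine SCM-1 beta, a name used for a lymphotactin-type chemokine in human. It was at 45.97 in CLBL-1 8.0 against 4.46 in CLBL-1, a 10.3-fold difference. That row was singled out after its values were seen. In the authors' deposited table, CCL5, CXCL10 and LOC490356 stand together in the chemokine signalling term, which holds 25 genes. Of these, 14 were higher and 11 lower in CLBL-1 8.0, against 65.2% higher of all rows. The lower ones include RAC2, a GTPase of blood cells, at 0.141 in CLBL-1 8.0 against 105 in CLBL-1, and VAV1, an exchange factor for Rac, at 2.27 against 14.5.

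Most of the receptor subunits with a row were higher in the resistant line, IL2RA and IL10RA among them. Of 57 interleukin, interferon and haematopoietin receptor genes, 7 had a row, 6 higher and 1 lower, against 65.2% higher of all rows. Their median log2 difference was 0.81 against 0.73 over all rows. Without IL2RA and IL10RA, 4 were higher and 1 lower, with a median of 0.75. TGFBR2, a TGF-beta receptor, was higher, at 50.4 in CLBL-1 8.0 against 31.5 in CLBL-1. Its difference lay below the median of all rows, at -0.067 after centring. IL2RA (gene ID 403870, chromosome 2, 29892130 to 29948926, plus strand) and IL10RA (gene ID 610823, chromosome 5, 15675775 to 15688935, minus strand) had the largest differences of the 7. IL1R1, the signalling receptor for interleukin-1, was at 14.5 in CLBL-1 8.0 against 5.51 in CLBL-1. IL3RA, the alpha subunit of the interleukin-3 receptor, was at 66.1 in CLBL-1 8.0 against 37.2 in CLBL-1.

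Further rows of the receptor and JAK lists belong to interleukin-2 and interleukin-15 receptors. IL2RB, the beta chain that interleukin-2 and interleukin-15 receptors share, was at 31.5 in CLBL-1 8.0 against 18.3 in CLBL-1, with a log2 difference of 0.75 where IL2RA had 1.67. IL15RA, the alpha subunit for interleukin-15, was the 1 lower receptor gene, at 2.64 in CLBL-1 8.0 against 5.72 in CLBL-1. JAK3, the kinase bound to the common gamma chain of these receptors, was at 15.6 in CLBL-1 8.0 against 25.2 in CLBL-1. SOCS2, a feedback inhibitor of JAK signalling, was at 13.5 in CLBL-1 8.0 against 22.01 in CLBL-1. IL2RG, STAT5A and STAT5B had no row, nor had IL10RB, the partner of IL10RA.

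Genes that interleukin-2 and STAT5 are known to induce or mark in activated lymphocytes had 9 of 29 list members in the table. Of these, 7 were higher and 2 lower in CLBL-1 8.0, against 65.2% higher of all rows, with a median of 1.40, and IL2RA is itself 1 of them. Without IL2RA, 6 were higher and 2 lower, with a median of 1.27. DUSP6, a phosphatase that inactivates ERK, was at 18.8 in CLBL-1 8.0 against 3.38 in CLBL-1. BCL2L1, which encodes the survival protein BCL-XL, was at 11.7 in CLBL-1 8.0 against 3.69 in CLBL-1, and CD44, a hyaluronan receptor, was at 18.4 against 7.82. The lower ones were SOCS2 and PRF1, which encodes perforin and was at 1.07 in CLBL-1 8.0 against 6.67 in CLBL-1.

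NFKBIA (gene ID 480291, chromosome 8, 14100203 to 14103453, minus strand) was 1 of few NF-kB pathway components with a row. Of 52 subunits, inhibitors, kinases and adaptors, 4 had a row, 3 higher and 1 lower, against 65.2% higher of all rows, with a median of 0.83. Without NFKBIA, 2 were higher and 1 lower, with a median of 0.78. NFKBIZ, a nuclear IkB protein, was at 9.84 in CLBL-1 8.0 against 5.32 in CLBL-1. TRAF3, an adaptor that restrains the non-canonical NF-kB pathway, was at 22.2 in CLBL-1 8.0 against 11.6 in CLBL-1. TANK, a TRAF-binding adaptor, was at 12.4 in CLBL-1 8.0 against 29.4 in CLBL-1, and it lies on chromosome 36, where 1 of 46 rows was higher. None of the subunits NFKB1, NFKB2, RELA, RELB and REL had a row, nor had TNFAIP3, the feedback inhibitor A20.

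Of 59 known NF-kB target genes, 7 had a row, 6 higher and 1 lower, against 65.2% higher of all rows, with a median of 1.27. CCL5, IL2RA and NFKBIA are 3 of these 7, so the count is not separate from them. Without them, BCL2L1, CD44 and NFKBIZ were higher and CXCL10 was lower, with a median of 0.96. NFKBIA appears in 18 of the 50 KEGG terms of the authors' deposited table, CCL5 in 5, IL2RA in 4, STAT4 in 2 and IL10RA in 1. In the signalling terms that hold both CCL5 and NFKBIA, the other genes were split, against 65.2% higher of all rows. The counts higher were 5 of 13 in the TNF term, 7 of 13 in the Toll-like receptor term and 12 of 23 in the chemokine term.

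STAT4 (gene ID 478845, chromosome 37, 1566563 to 1685378, minus strand) belonged to a group with more lower than higher rows. Of 32 JAK, STAT and SOCS genes, 6 had a row, 2 higher and 4 lower, against 34.8% lower of all rows, with a median of -0.66. STAT4 is itself 1 of the 4, and without it 2 were higher and 3 lower. PIAS2, a SUMO ligase first described as an inhibitor of STAT proteins, was at 15.6 in CLBL-1 8.0 against 4.66 in CLBL-1. STAM, an adaptor of receptor sorting, was at 17.5 in CLBL-1 8.0 against 10.7 in CLBL-1. Its log2 difference of 0.66 lay below the median of all rows, at -0.074 when centred. At 1.63-fold, STAM too lay near the smallest fold of the table, 1.59.

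Interleukin-12 and STAT4 response genes had 5 of 20 list members in the table. Of these, 2 were higher and 3 lower in CLBL-1 8.0, against 34.8% lower of all rows, with a median of -0.75. Without STAT4 and CCL5, 1 was higher and 2 were lower. Over the members with a mean of at least 10, which leaves out STAT4 and PRF1, the median was 1.36. The T-box factor EOMES, given above, was lower. FURIN, a proprotein convertase, was at 100.5 in CLBL-1 8.0 against 38.4 in CLBL-1. The other members with a row were STAT4, CCL5 and PRF1. IL12A, a subunit of the cytokine that activates STAT4, was at 5.01 in CLBL-1 8.0 against 1.03 in CLBL-1. Its larger value lay at the lower edge of the table, where the smallest larger value of any row was also 5.01. IL12A was the 1 gene with a row among 43 interleukins, interferons and haematopoietins.

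The Jak-STAT term of the authors' deposited table, with their p-value of 0.0362, is the term that holds most of the 5 genes: IL2RA, IL10RA and STAT4. It stood at rank 36 of the authors' 50 KEGG terms. Of its 19 genes, 11 were higher and 8 lower in CLBL-1 8.0, a share of 57.9% higher against 65.2% of all rows. Their median log2 difference was 0.69 against 0.73 over all rows. IL10RA and IL2RA stood at the higher end of the 19 and STAT4 at the lower end. PI3-kinase subunits in the term were split: PIK3R2 was at 21.2 in CLBL-1 8.0 against 6.71 in CLBL-1, while PIK3CD, the delta catalytic subunit of lymphocytes, was at 3.34 against 10.1.

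**Figure D3:**
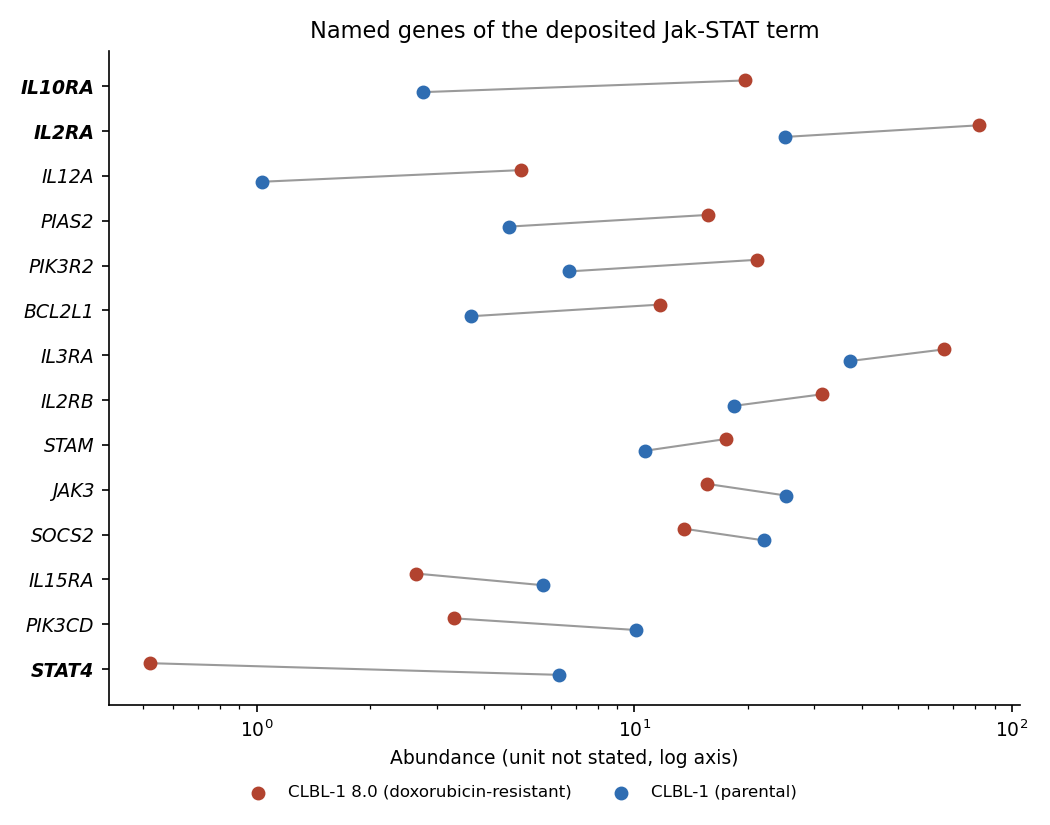
Abundance (log axis, unit not stated) in CLBL-1 8.0 (red) and CLBL-1 (blue) of the 14 genes of the deposited Jak-STAT term that are named in the text, ordered by log2 difference, with the genes described here in bold. Of the genes drawn, 9 are higher and 5 lower in CLBL-1 8.0, with IL10RA at the top and STAT4 at the bottom.

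Genes of the TNF and TNF receptor superfamilies were split, with 3 of 6 list members higher and 3 lower, against 65.2% higher of all rows. TNFRSF6B, which the list did not hold, also had a row and was higher, at 36.6 in CLBL-1 8.0 against 22.0 in CLBL-1. The list's median of 0.085 is the midpoint of its middle differences, 0.88 and -0.71. No gene lies near it, since the table holds no row less than 1.59-fold apart. The median becomes -0.19 with upper-quartile scaling, -0.65 when centred and -0.71 over rows with a mean of at least 10. TNFRSF19, an orphan receptor, was at 22.8 in CLBL-1 8.0 against 4.13 in CLBL-1. TNFRSF12A, the receptor for TWEAK, was at 73.6 in CLBL-1 8.0 against 23.2 in CLBL-1 and lies on chromosome 6, where 214 of 227 rows were higher. TNFSF10, the death ligand TRAIL, was at 34.1 in CLBL-1 8.0 against 67.4 in CLBL-1. Over all 9 pathway lists, with 323 distinct genes, 34 had a row. Without the 5 genes described, 18 were higher and 11 lower, a share of 62.1% higher against 65.2% of all rows, with a median of 0.78 against 0.73.

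**Figure D4:**
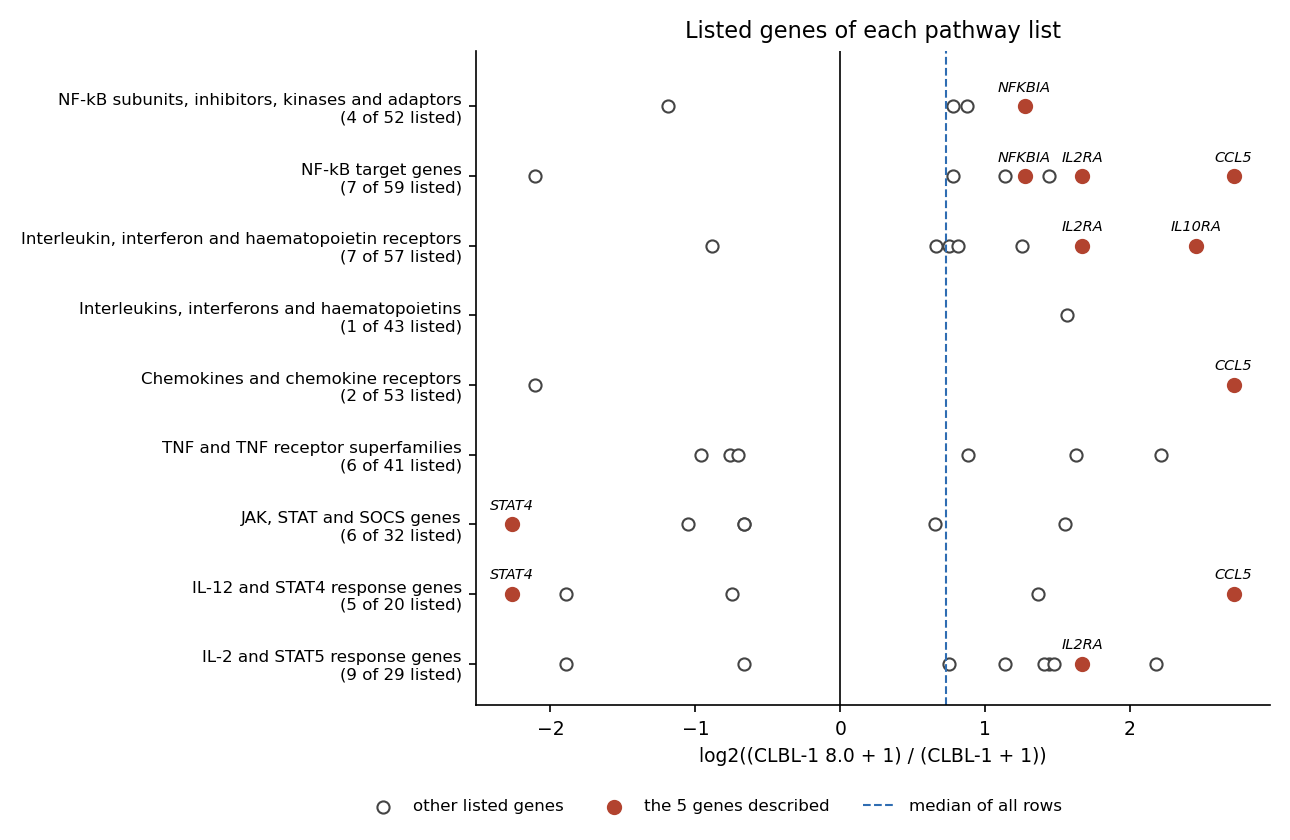
Log2 difference, CLBL-1 8.0 over CLBL-1 with 1 added to each value, of every gene with a row in 9 pathway lists, with the 5 genes in red, other genes as open circles and the median of all rows (0.73) as a dashed line. CCL5 and IL10RA lie farthest to the right in their lists and STAT4 farthest to the left.

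By position, the 5 genes lay on 5 chromosomes, in surroundings that differed. IL10RA lay inside a stretch of 32 consecutive listed rows that were all higher in CLBL-1 8.0, from 9.72 to 21.5 Mb of chromosome 5, delimited after the values were seen. The other 31 rows of the stretch ranged from 0.66 to 1.94 in log2 difference around a median of 1.00, and IL10RA at 2.45 was above all of them. Elsewhere on chromosome 5, 97 of 121 rows were lower. Whether this stretch accounts for part of the IL10RA difference was not tested.

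Of the 6 listed rows around NFKBIA, taken as 3 on each side whatever their distance, 5 were lower in CLBL-1 8.0, against 34.8% lower of all rows. They lay 2218 to 7365 kb from NFKBIA, and 17 of the 42 other rows of chromosome 8 were lower. Of the 6 taken likewise around IL2RA, 4 were lower, as were 22 of the 55 other rows of chromosome 2. Nothing is read from counts over 6 rows. IL15RA follows IL2RA on the chromosome after 32.5 kb, and the 2 genes differed in direction. On the far side of STAT4 the next row, CASP10, which encodes a caspase, lay 8630 kb away and was higher, at 5.53 in CLBL-1 8.0 against 3.44 in CLBL-1. Of the 6 listed rows around CCL5, 3 on each side, 3 were higher and 3 lower, against 65.2% higher of all rows. The nearest of the lower ones on its far side, LGALS9, a galectin, was at 5.21 in CLBL-1 8.0 against 11.9 in CLBL-1.

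**Figure D5:**
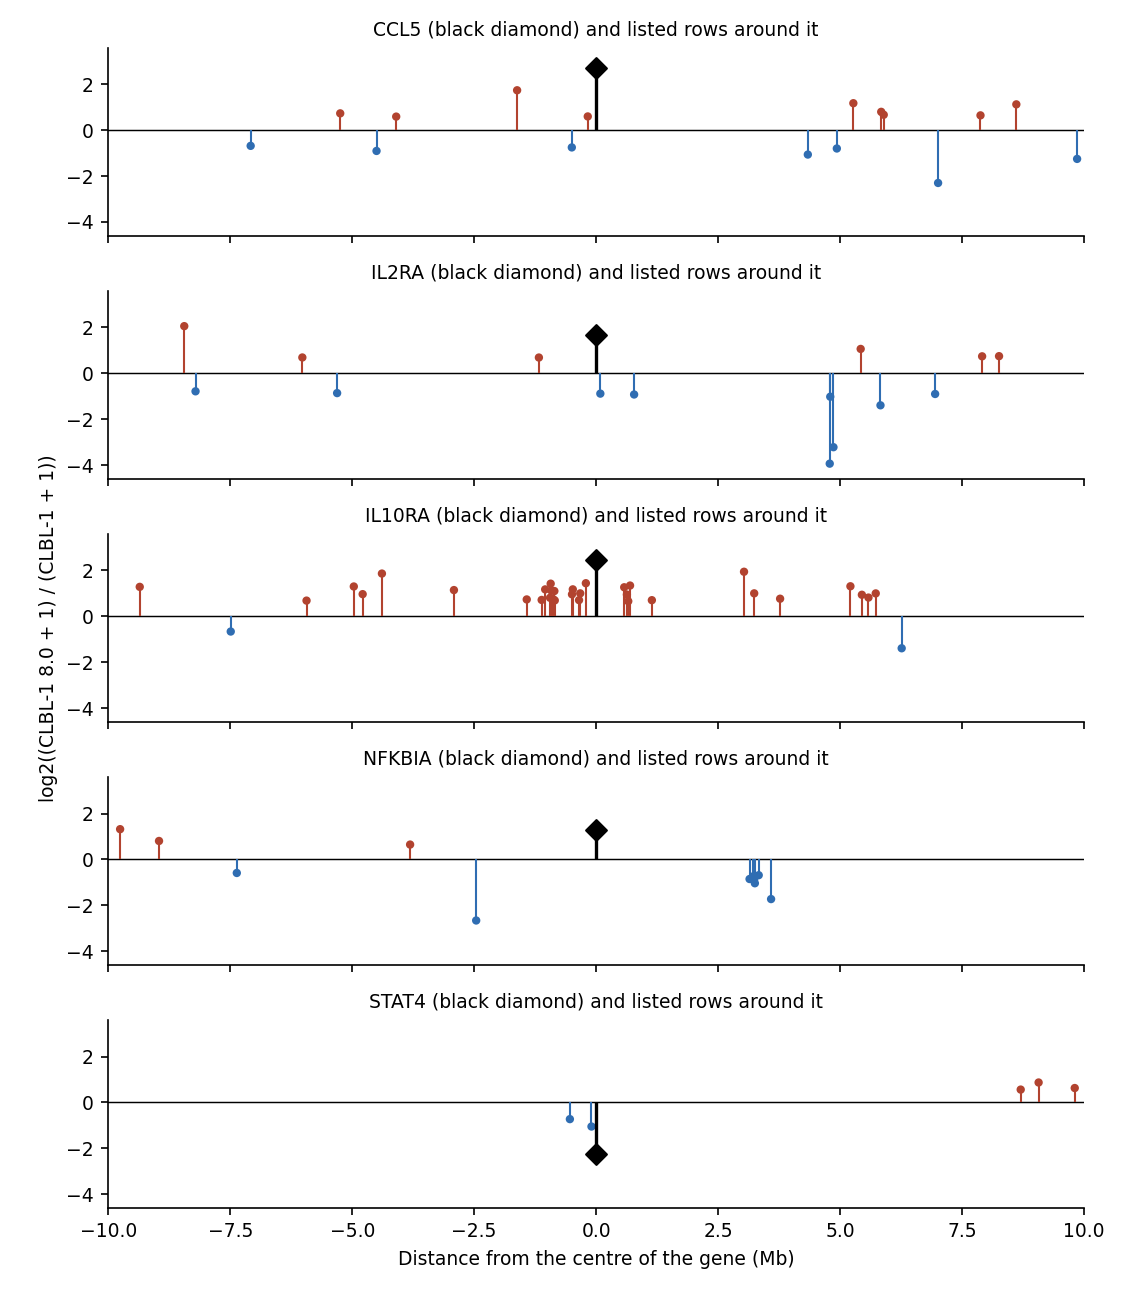
Log2 difference, CLBL-1 8.0 over CLBL-1 with 1 added to each value, of listed rows within 10 Mb on each side of each gene, by distance from its centre in Mb. Higher rows are red, lower rows blue and the named gene a black diamond. Around IL10RA 32 of 34 other rows are higher, around NFKBIA 3 of 11, against 65.2% of all rows.

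No other listed row overlapped any of the 5 genes in the deposited coordinates. In the reference table of dog genes, which is of another assembly, SMIM35 overlaps IL10RA, and a long non-coding RNA gene overlaps CCL5 and another overlaps IL2RA. The sources used here do not say how strand was handled in counting, so reads of these overlapping genes may not have been separable.

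By likeness of the pair of values, as the distance between rows in log2(value + 1) over 2 samples, the rows nearest to IL10RA were TRAT1, a T cell receptor adaptor, at 20.6 in CLBL-1 8.0 against 2.72 in CLBL-1, and SLC39A12, a zinc transporter, at 21.1 against 3.02. Nearest to IL2RA were SSBP2, which binds single-stranded DNA, at 87.1 in CLBL-1 8.0 against 23.6 in CLBL-1, and TNFRSF12A. Nearest to CCL5 were MAPKAP1, a subunit of the mTORC2 kinase complex, at 54.1 in CLBL-1 8.0 against 6.01 in CLBL-1, and FAM214A. Nearest to NFKBIA were PTS, an enzyme of tetrahydrobiopterin synthesis, at 26.6 in CLBL-1 8.0 against 10.1 in CLBL-1, and NUPR2. Nearest to STAT4 were TOM1L2, a membrane trafficking protein, at 0.757 in CLBL-1 8.0 against 5.58 in CLBL-1, and GM2A, the GM2 ganglioside activator. With 2 samples, such likeness says only that the values are close.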

How the data were processed

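Poly-A RNA was sequenced from the resistant and the parental line, 1 sample each. HISAT2, StringTie and CanFam3.1 were used, per the submitters' processing notes, and the sources used here do not name versions, settings, annotation or strand handling. The deposited abundance signal per gene is not in whole numbers and has no stated unit, so no counts, depth or counting interval were available. The authors' deposited log2 fold change equals log2 of the value columns' ratio to within 1.6e-14. The number (count) of genes and the p-value of each term are the authors', per the file headers, with tool and adjustment not given. The column named CLBL-8 was taken as CLBL-1 8.0.

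From these values, log2((CLBL-1 8.0 + 1)/(CLBL-1 + 1)) was computed with pandas 2.3.3 and numpy 2.4.6, with no filter. The computation was also run on values with known changes and no added noise, which checks its arithmetic only. No test was made between groups of 1 sample. Lists were matched by symbol, then by gene ID in the UU_Cfam_GSD_1.0 gene table, of which no coordinate is printed. The 5 genes and the lists were chosen with earlier results of these data known. Named genes are the 5 genes, list members with a larger value of at least 10 (up to 8 per list, by absolute difference), the 2 rows nearest in values to each gene, and the 3 listed rows on each side. NFKBIZ, IL15RA, PRF1, IL12A, ICOS, THEMIS, EPCAM, the term genes RAC2, VAV1, PIK3R2, PIK3CD, BST2 and ISG20, and LOC490356 with other rows that no list holds were chosen once their values had been seen. Alternatives were other pseudocounts, upper-quartile scaling, centring, a minimum mean of 10 and a 2-fold minimum. Promoter motifs were not analysed here, and some genes within the naming rule are not reported here.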

Additional observations from a re-analysis of the deposited data

How the results depend on the processing

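The 5 single-gene differences kept their sign in all 20 values under the other pseudocounts and scalings. A pseudocount cannot change a sign. The smallest of the 5 in size, 1.27 for NFKBIA, exceeded the log2 shifts of the scalings, 0.32 and 0.73. No reversal was therefore possible, and nothing is read from the kept signs. The median of the 5 differences, 1.67, was 1.71 without a pseudocount and 1.53 with a pseudocount of 5. It was 1.36 with upper-quartile scaling and 0.94 after centring on the median over all rows. STAT4 ranged from -3.59 without a pseudocount to -1.03 with a pseudocount of 5. Of 40 list medians under the alternatives, 7 changed sign. The TNF superfamily and T and NK cell marker medians lay in the gap that the selection of rows leaves around 0, where no gene lies. Nothing is read from their changes of sign. The TNF superfamily median of 0.085 was -0.067 with a pseudocount of 5, -0.19 with upper-quartile scaling, -0.65 when centred and -0.71 over rows with a mean of at least 10. The T and NK cell marker median of 0.11 was -0.20 with upper-quartile scaling, -0.62 when centred and 0.97 over rows with a mean of at least 10. The interleukin-12 and STAT4 median of -0.75 was 1.36 over rows with a mean of at least 10, where STAT4 and PRF1 no longer count. Of all rows, 1127 were higher, or 416 with a 2-fold minimum, 734 with a mean of at least 10 and 216 with upper-quartile scaling and a 2-fold minimum. Lower rows numbered 602, or 249, 391 and 533 under the same alternatives. No paired analysis was possible because the result comes from no test and each line is 1 sample. With the depth unknown, how far low values such as that of STAT4 can be trusted was not measurable.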

Other observations

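A further 6 rows outside the lists, picked after their values were seen, have descriptions that name a cytokine, a TNF-related protein or an NF-kB adaptor. Of these, 5 were higher and 1 was lower in CLBL-1 8.0, against 65.2% higher of all rows, and nothing is read from this count. LOC490356 is given above. IL32, a cytokine without a mouse counterpart, was at 20.4 in CLBL-1 8.0 against 8.89 in CLBL-1, and lies on chromosome 6, where 214 of 227 rows were higher. TNFRSF6B, a decoy receptor for FAS ligand, was at 36.6 in CLBL-1 8.0 against 22.0 in CLBL-1, and its log2 difference of 0.71 lay below the median of all rows, 0.73. TNFAIP8L3 was at 18.4 in CLBL-1 8.0 against 6.83 in CLBL-1, and IRAK1BP1 at 33.5 against 19.0. The lower row was TRAF3IP3, which binds the adaptor TRAF3 that was itself higher, at 4.45 in CLBL-1 8.0 against 26.9 in CLBL-1. The deposited term for negative regulation of viral genome replication holds 7 genes. Of these, 3 were higher and 4 lower in CLBL-1 8.0, against 65.2% higher of all rows. CCL5 was 1 of the higher ones, and of the lower ones BST2, an antiviral membrane protein, was at 7.09 in CLBL-1 8.0 against 49.0 in CLBL-1, and ISG20, an exonuclease, at 1.88 against 11.9.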
